A study of Mus musculus with 7 samples.

Results

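Genes of the cell cycle were examined in pancreatic islets of young adult mice in which Wnt4, a secreted Wnt ligand made by β-cells, had been inactivated. The set held 43 genes of the 22911 that could be named on the array, chosen by symbol for their roles and not by their values. Of these, 13 act in DNA replication, 13 in mitosis, and 2 are transcription factors of the cycle. A further 6 are cyclins of types E, A and B or the kinase Cdk1, 5 are G1 cyclins and kinases, and 4 are kinase inhibitors. Each gene was represented by its brightest probe, and 18 of the 43 had more than 1 probe. A probe was tested where it lay well above background, by the scanner software's own call, on at least 3 of the 7 arrays, and 35 of the 43 genes met this.

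The arrays compared 3 control mice, which carried floxed Wnt4 alleles without Cre (Pdx1CreER Tg-; Wnt4fl/fl), with 4 Wnt4βKO mice, which carried the same alleles and the Cre (Pdx1CreER Tg+; Wnt4fl/fl). Both groups had been crossed to C57BL/6J, both were given tamoxifen by gavage 2 times from 4 to 5 weeks of age, and islets were collected at 7 weeks. Per the study's methods the mice were males and the controls littermates, and 1 further control sample had been left out by the authors for its quality. The Cre fusion is driven by the Pdx1 promoter, which is active in β-cells and also in part of the δ-cells, and the controls lacked Cre altogether, so that any effect of the Cre itself cannot be told apart from that of Wnt4 loss. The arrays were single-colour (Cy3) oligonucleotide arrays. Whole islets were used, which also hold other endocrine cells, endothelium, immune cells and adhering exocrine tissue, so that fewer cells of a type and less RNA per cell cannot be told apart.

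As background, a cell that leaves rest first makes D-type cyclins, which activate Cdk4 and Cdk6, and these release E2F transcription factors from the retinoblastoma protein. E2F factors switch on replication genes for S phase. Later a further wave of genes for mitosis is switched on through B-Myb and FoxM1, largely at promoters with a CHR element. Kinase inhibitors of the Cip/Kip and Ink4 families hold the cycle back. In mice β-cells divide often in the weeks after birth and rarely in adults, cyclin D2 is the main D-type cyclin of the islet, and p27 and p57 (Cdkn1b and Cdkn1c) keep β-cells at rest.

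The promoters of these genes were searched for the letters of elements tied to the 2 waves of the cycle, and 4 are shown as examples of replication and mitosis genes. They are the 2 brightest replication genes, Pcna and Mcm6, and the 2 brightest mitosis genes, Mki67 and Cdc20, with a promoter in the RefSeq table. Each run holds 300 bases around the transcription start in build GRCm38.p6, read along the gene, here on the minus strand. Capitals mark matches on either strand to the E2F sites TTTGGCGC and TTTCCCGC, the CHR element TTTGAA and the CCAAT box (ATTGG on the other strand).
Pcna, chr2:132253131-132253430, - strand: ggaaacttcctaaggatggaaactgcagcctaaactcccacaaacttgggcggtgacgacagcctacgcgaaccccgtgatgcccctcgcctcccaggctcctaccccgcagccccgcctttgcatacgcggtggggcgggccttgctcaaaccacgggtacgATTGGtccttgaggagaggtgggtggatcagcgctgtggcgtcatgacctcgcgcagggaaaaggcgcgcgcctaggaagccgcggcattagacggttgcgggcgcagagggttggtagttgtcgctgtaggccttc
Mcm6, chr1:128359656-128359955, - strand: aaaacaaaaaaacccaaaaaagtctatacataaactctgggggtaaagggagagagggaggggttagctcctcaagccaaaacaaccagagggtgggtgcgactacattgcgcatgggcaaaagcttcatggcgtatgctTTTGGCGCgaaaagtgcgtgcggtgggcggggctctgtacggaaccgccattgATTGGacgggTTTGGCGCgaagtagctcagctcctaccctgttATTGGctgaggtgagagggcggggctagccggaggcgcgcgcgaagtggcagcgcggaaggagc
Mki67, chr7:135716330-135716629, - strand: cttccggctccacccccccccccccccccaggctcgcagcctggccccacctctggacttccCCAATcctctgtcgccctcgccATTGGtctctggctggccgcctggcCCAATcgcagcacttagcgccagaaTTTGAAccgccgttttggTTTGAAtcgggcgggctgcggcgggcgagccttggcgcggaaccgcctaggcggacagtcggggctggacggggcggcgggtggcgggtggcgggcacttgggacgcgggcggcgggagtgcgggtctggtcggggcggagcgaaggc
Cdc20, chr4:118437294-118437593, - strand: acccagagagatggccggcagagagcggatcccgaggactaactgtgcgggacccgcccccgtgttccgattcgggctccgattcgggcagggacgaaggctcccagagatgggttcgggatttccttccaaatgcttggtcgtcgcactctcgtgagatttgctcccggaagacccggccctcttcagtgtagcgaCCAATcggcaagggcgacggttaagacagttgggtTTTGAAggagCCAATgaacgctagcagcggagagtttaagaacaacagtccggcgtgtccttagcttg

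Mcm6, a subunit of the replicative helicase, held 2 E2F sites and 2 CCAAT boxes, and no CHR. Pcna, the sliding clamp of the replication fork, held 1 CCAAT box and none of the other letters. Mki67, which coats mitotic chromosomes, held 2 CHR elements and 3 CCAAT boxes, and Cdc20, an activator of the anaphase-promoting complex, held 1 CHR and 2 CCAAT boxes. Promoters were in the table for 34 of the 43 genes, with 38 start sites in all. Either E2F site stood in 6 of the 12 replication promoters (50.0%) and in 0 of the 11 mitosis promoters, against 1.56% of all 32851 promoters in the table. A CHR stood in 9 of the 11 mitosis promoters (81.8%) and in 1 of the 12 replication promoters, against 17.9% of all promoters. The CCAAT box stood in 10 of 11 and 9 of 12, against 37.4%. Of the 4 promoters of the E-, A- and B-type cyclins and Cdk1, 2 held a CHR and 0 an E2F site. These are matches of letters and not measured sites, and no array value entered them. Cdc25c, Ccnd2, Aurkb, Ccne2, Foxm1, Ccna2, Mcm4, Gins2 and Cdkn1c had no entry.

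The 8 genes that could not be tested were Cdk1, Cdk2, Cdk6, Ccne2, Aurkb, Bub1, Bub1b and Kif11. Cdk1, Cdk6, Ccne2, Aurkb and Bub1b reached that level on 0 of the 7 arrays. Cdk2 and Kif11 did so on 1 array and Bub1 on 2. They include the kinase that drives mitosis, the spindle checkpoint kinases and the spindle motor Kif11, and their values lay between 5.69 and 6.01 on the log2 scale, near the lowest signals called above background (5.65 to 5.84 by array). Nothing can be said about their difference between the groups. Of the 35 tested genes, 29 were well above background on all 7 arrays.

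No cell cycle gene differed between Wnt4βKO and control islets after adjustment over all 26151 tested probes, by limma's test with Benjamini-Hochberg adjustment. The adjusted p ranged from 0.616 to 0.988 over the 35 genes, and 4 of all tested probes (0.0153%) passed 0.05. At an unadjusted p under 0.05, which the study took as its cutoff, 4 of the 35 passed, against 6.96% of all tested probes. All 4 were higher in Wnt4βKO islets, where 3.33% of all probes were called, and 0 were lower, where 3.63% were. The median log2 fold change of the 35 genes was 0.02, beside 0.00267 over all tested probes, with 19 genes higher and 16 lower, and its sign turned under 6 of the 19 alternative settings.

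**Figure D1:**
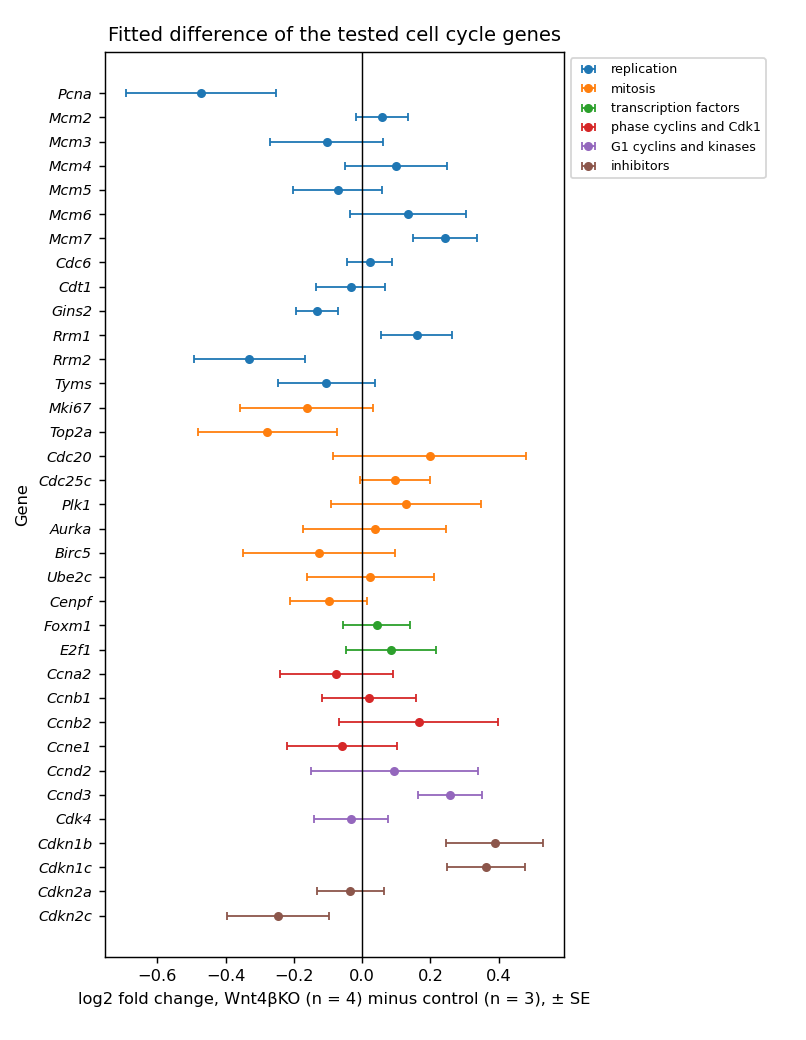
Fitted log2 fold change of each of the 35 tested genes (x axis, Wnt4βKO with n = 4 minus control with n = 3) with its standard error (bars), one row per gene, coloured by role. The points run from -0.47 (Pcna) to 0.39 (Cdkn1b), and most bars cross 0.

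Of the 4 kinase inhibitors, 2 were higher in Wnt4βKO islets at the unadjusted threshold, where 3.33% of all tested probes were, and neither was after adjustment. With only 4 genes, the count is not read as a result about the class. Cdkn1c encodes p57, a Cip/Kip inhibitor known for holding β-cells at rest. Its log2 signal in the controls (replicates 2, 3 and 4, in this order throughout) was 7.05, 7.31 and 7.41, and that in the Wnt4βKO islets (replicates 1 to 4) was 7.70, 7.59, 7.44 and 7.74. All 4 Wnt4βKO values lay above all 3 control values, with Wnt4βKO replicate 3 closest to the highest control. The log2 fold change of Cdkn1c was 0.36 ± 0.11 (SE), or 1.29-fold, with an unadjusted limma p of 0.0146 and an adjusted p of 0.616.

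Cdkn1b encodes p27, the other Cip/Kip inhibitor of the set. It gave 6.49, 6.83 and 6.55 in the controls and 7.19, 7.11, 6.69 and 7.07 in the Wnt4βKO arrays. The groups overlapped, since Wnt4βKO replicate 3 lay below control replicate 3. Cdkn1b had a log2 fold change of 0.39 ± 0.14 (SE), or 1.31-fold, with an unadjusted limma p of 0.0283 and an adjusted p of 0.670. Under the processed signal of the scanner software, which is not raised by the offset used here, the log2 fold changes were 0.59 for Cdkn1c and 0.67 for Cdkn1b. Without control replicate 2, which was the lowest array for both, the log2 fold changes were 0.26 and 0.32 and neither passed the unadjusted threshold (p of 0.0506 and 0.0959).

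The Ink4 inhibitors, which block Cdk4 and Cdk6, did not share this direction. Cdkn2c, which encodes p18, gave 7.49, 8.03 and 7.66 in control islets and 7.49, 7.25, 7.53 and 7.64 in Wnt4βKO islets. Its log2 fold change was -0.25 ± 0.15 (SE), with an unadjusted limma p of 0.139. Cdkn2a, whose locus encodes p16 and p19Arf and which is known to accumulate with age in islets, lay between 6.02 and 6.34 on all arrays, with a log2 fold change of -0.03 ± 0.10 (SE). Of the 4 inhibitors, 2 were thus higher and 2 lower. Their median log2 fold change of 0.16, which ranged from 0.12 to 0.25 over the 19 alternatives, lay between these pairs and describes no shared shift. Cdkn2b and Cdkn2d, Ink4 inhibitors among the further cell cycle genes described below, had -0.39 ± 0.19 (SE) and -0.01 ± 0.24 (SE). The unadjusted limma p of Cdkn2b was 0.0749.

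Among the G1 cyclins and their kinase, 1 of the 3 tested genes was past the unadjusted threshold, against 6.96% of all tested probes, and nothing is read from so small a count. Ccnd3, cyclin D3, gave 8.62, 8.74 and 8.80 in controls and 9.15, 8.87, 8.90 and 9.01 in Wnt4βKO islets, and the groups did not overlap. The log2 fold change of Ccnd3 was 0.26 ± 0.09 (SE), with an unadjusted limma p of 0.0261 and an adjusted p of 0.664. A further Ccnd3 probe gave 0.23, with an unadjusted limma p of 0.108. The Ccnd3 call was lost under 11 of the 19 alternatives, with values between 0.20 and 0.30.

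Ccnd2, cyclin D2, is the D-type cyclin that β-cell division depends on most. Its brightest probe gave 13.60, 13.33 and 12.70 in controls and 13.20, 12.94, 13.67 and 13.40 in Wnt4βKO islets, so that the groups overlapped. The log2 fold change was 0.09 ± 0.24 (SE). The other Ccnd2 probes gave -0.01 and 0.37 and ordered the arrays differently: Wnt4βKO replicate 1 was the lowest array on one of them (10.53) and Wnt4βKO replicate 2 the highest on the other (10.51). Which transcripts they report was not determined. Cdk4, the partner kinase of both cyclins, lay between 10.63 and 11.01 on all arrays, with a log2 fold change of -0.03 ± 0.11 (SE), and its other probes gave 0.19 and -0.13.

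Among the replication genes, the 13 of which were all tested, 6 were higher and 7 lower in Wnt4βKO islets, and their median log2 fold change was -0.03. Pcna had the largest fitted difference of the members on this scale, while with the processed signal Cenpf (-1.09), Cdkn1b (0.67) and Rrm2 (-0.67) among others exceeded it. It gave 8.95, 9.29 and 8.93 in controls and 8.23, 8.31, 9.11 and 8.68 in Wnt4βKO islets. Wnt4βKO replicates 1, 2 and 4 lay below every control, and replicate 3 lay among the controls. The log2 fold change of Pcna was -0.47 ± 0.22 (SE), or 72.0% of the control level, with an unadjusted limma p of 0.0665 and an adjusted p of 0.748. The difference passed the unadjusted threshold under 3 of the 19 alternatives. Without Wnt4βKO replicate 3, the highest Wnt4βKO value, it was -0.65, with an unadjusted limma p of 0.00575. With the row of the slide as a block it was -0.40, with a p of 0.0440, and with the replicate number as a block -0.36, with a p of 0.0409. All other alternatives missed the threshold, and without control replicate 3 it was -0.36, with an unadjusted limma p of 0.200.

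Rrm2, the regulated subunit of ribonucleotide reductase, which makes deoxynucleotides in S phase, gave 7.22, 7.31 and 7.47 in controls and 6.91, 6.65, 7.32 and 7.13 in Wnt4βKO islets. Its log2 fold change was -0.33 ± 0.16 (SE), with an unadjusted limma p of 0.0788. Rrm2 passed the unadjusted threshold under 2 of the 19 alternatives, with the processed signal (-0.67, p 0.0344) and without Wnt4βKO replicate 3 (-0.44, p 0.0213). Without Wnt4βKO replicate 2, its lowest array, the log2 fold change was -0.21, with an unadjusted limma p of 0.153. Its partner Rrm1, whose level changes less through the cycle, had 0.16 ± 0.10 (SE). Tyms, which makes thymidylate, had -0.11 ± 0.14 (SE), and a dimmer probe of it had -0.30. The genes of nucleotide supply thus lay on both sides of 0.

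The genes of the replicative helicase, Mcm2 to Mcm7, gave log2 fold changes from -0.10 (Mcm3) to 0.24 (Mcm7). Mcm7 gave 8.12, 8.10 and 8.19 in controls and 8.24, 8.35, 8.34 and 8.59 in Wnt4βKO islets, and the groups did not overlap. Its log2 fold change was 0.24 ± 0.09 (SE), with an unadjusted limma p of 0.0350 and an adjusted p of 0.676, and the call was lost under 11 of the 19 alternatives. Of the factors that load or start the helicase, Cdc6 had 0.02 ± 0.07 (SE) and Cdt1 had -0.03 ± 0.10 (SE). Gins2, a subunit of the GINS complex, was well above background in 3 of 3 control arrays and in 0 of 4 Wnt4βKO arrays.

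Gins2 gave 5.99, 6.03 and 6.06 in controls and 5.90, 5.89, 5.91 and 5.89 in Wnt4βKO islets, with no overlap. These signals were 1.096-fold lower in Wnt4βKO islets. Since no Wnt4βKO array was called well above background and the offset compresses dim signals, the true size of the difference is not known. Its adjusted limma p was 0.743. Gins2 passed the filter through the control arrays alone, so that a difference was built into its being tested, and its dimmer probe was not tested. Over all members, 3 (Cdkn1c, Ccnd3 and Mcm7) were higher and 1 (Gins2) was lower with no overlap between the groups, against 7.24% of all tested probes.

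**Figure D2:**
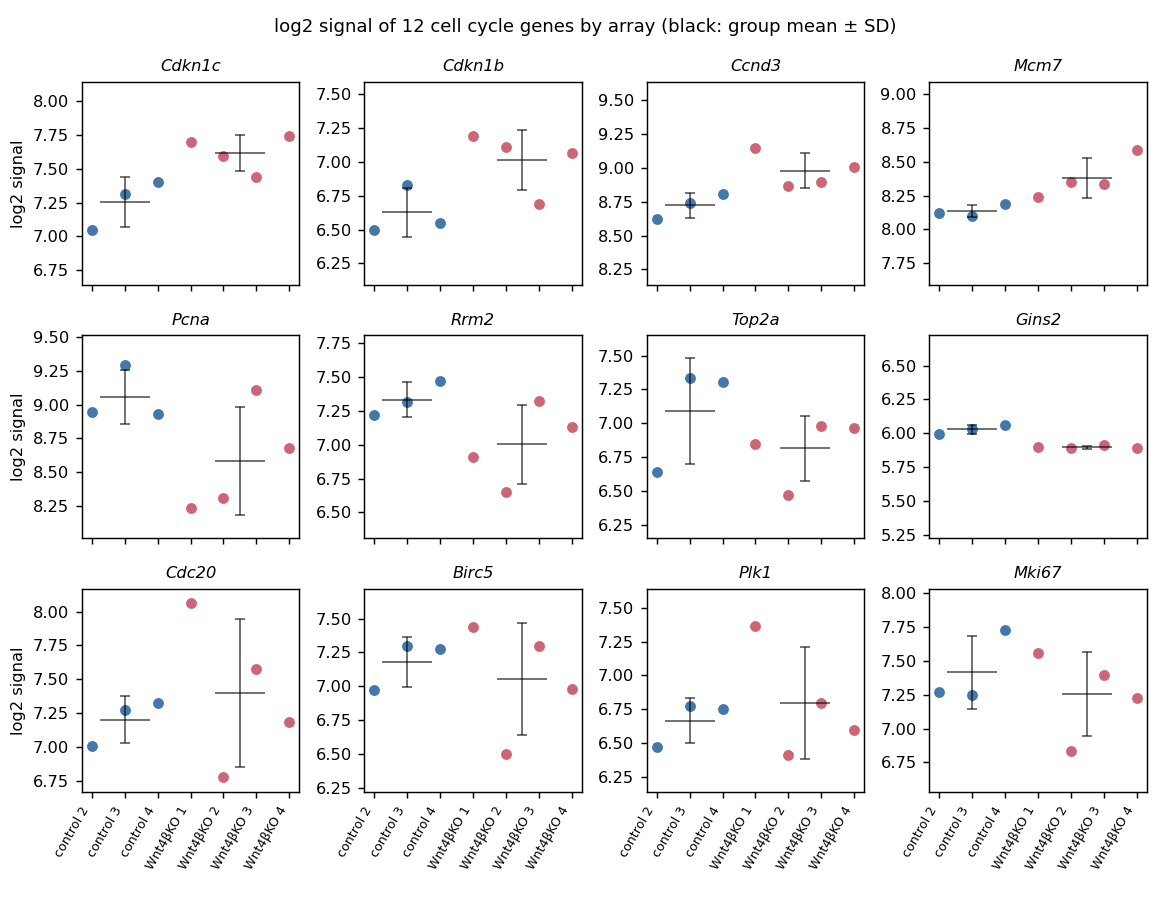
log2 signal (y axis, each panel spanning the same number of units) of 12 cell cycle genes in the 3 control arrays (blue) and the 4 Wnt4βKO arrays (red), with the group mean and SD in black. Cdkn1c, Ccnd3, Mcm7 and Gins2 show no overlap between the groups, and Cdc20, Birc5, Plk1 and Mki67 have their lowest value in Wnt4βKO replicate 2.

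None of the mitosis genes passed the adjusted or the unadjusted threshold under the normalization used here. Of the 13, 9 were tested, with log2 fold changes from -0.28 (Top2a) to 0.20 (Cdc20) and a median of 0.02, which had the other sign under 8 of the 19 alternatives. Their lowest unadjusted limma p was 0.215, for Top2a, which untangles chromosomes before they separate. Top2a passed the unadjusted threshold under 2 of the 19 alternatives. These were without control replicate 2, its lowest control (log2 fold change -0.50, unadjusted limma p 0.0185), and with the replicate number as a block (-0.29, p 0.0278). Without control replicate 3, its highest array, the log2 fold change was -0.16, with an unadjusted limma p of 0.514. Mki67, the gene of the proliferation marker Ki67, had a log2 fold change of -0.16 ± 0.19 (SE). A p that misses the threshold does not show that the groups were alike. For Mki67 the fitted level in Wnt4βKO islets was 89.4% of the control level, and the standard error was larger than the log2 fold change itself.

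The spread of these 9 mitosis genes between animals was large beside that of other genes. Their median SD over the 7 arrays was 0.29 on the log2 scale, against 0.17 over all tested probes and 0.22 over all 35 members. Over the 30 further mitosis genes described below it was also 0.17, so the wide spread was not shared by mitosis genes at large. Averaged over the 9 genes, the log2 signal was 6.62, 6.94 and 6.95 in the controls against 7.14, 6.45, 6.95 and 6.73 in the Wnt4βKO islets. The highest and the lowest animal of all 7 were thus both Wnt4βKO mice, and control replicate 2 was the lowest control. The group means were 6.84 ± 0.19 (SD, n = 3) and 6.82 ± 0.30 (SD, n = 4).

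Cdc20 had the widest range over the animals on this scale, while with the processed signal Cenpf, Foxm1, Plk1 and Cdt1 had wider ones among the tested genes. It gave 7.00, 7.27 and 7.33 in controls and 8.06, 6.77, 7.58 and 7.18 in Wnt4βKO islets, so that Wnt4βKO replicate 1 was 2.44-fold above Wnt4βKO replicate 2, or 4.10-fold with the processed signal. Its dimmer probe ordered the highest and lowest arrays in the same way (7.08 and 6.35). Plk1, a kinase that drives entry into mitosis and spindle assembly, gave 6.47, 6.77 and 6.75 in controls and 7.37, 6.41, 6.80 and 6.60 in Wnt4βKO islets, a gap between the same 2 animals of 1.94-fold, or 4.97-fold with the processed signal. Birc5, which encodes survivin of the chromosomal passenger complex, gave 6.97, 7.29 and 7.28 in controls and 7.44, 6.50, 7.30 and 6.98 in Wnt4βKO islets.

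Mki67 gave 7.27, 7.25 and 7.73 in controls and 7.56, 6.84, 7.40 and 7.23 in Wnt4βKO islets. Its highest array was control replicate 4 and its lowest Wnt4βKO replicate 2. Aurka, a kinase of the spindle poles, lay between 6.73 (control replicate 2) and 7.53 (Wnt4βKO replicate 1). Ube2c, the ubiquitin-conjugating enzyme that serves the anaphase-promoting complex, lay between 6.27 (Wnt4βKO replicate 2) and 6.93 (Wnt4βKO replicate 3). Top2a lay between 6.47 and 7.33, Cdc25c, a phosphatase that activates Cdk1, between 5.91 and 6.29, and the kinetochore protein gene Cenpf between 5.92 and 6.31.

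All 9 mitosis genes were higher in Wnt4βKO replicate 1 than in Wnt4βKO replicate 2, by 0.30 to 1.29 on the log2 scale with a median of 0.64. Over all tested probes 51.0% were higher in replicate 1, with a median difference of 0.01. All 9 kept this order under each of the 5 other background corrections and normalizations, where the median difference ran from 0.66 under cyclic loess to 1.82 with the processed signal. These 2 animals were picked because they stood farthest apart in this mean, so the gap is a description and carries no test. They lay in the same row of the slide, as did control replicate 4. The order of the 4 Wnt4βKO animals in this mean was that of their Wnt4 signal too, which was 11.30, 10.80, 11.04 and 10.92 in replicates 1 to 4, while the 3 controls (11.56, 11.17 and 11.77 for Wnt4) did not follow it. The mean of the 30 further mitosis genes described below did not keep this order, at 7.07, 6.80, 7.00 and 7.04 in Wnt4βKO replicates 1 to 4. A relation to the Wnt4 signal was not tested.

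**Figure D3:**
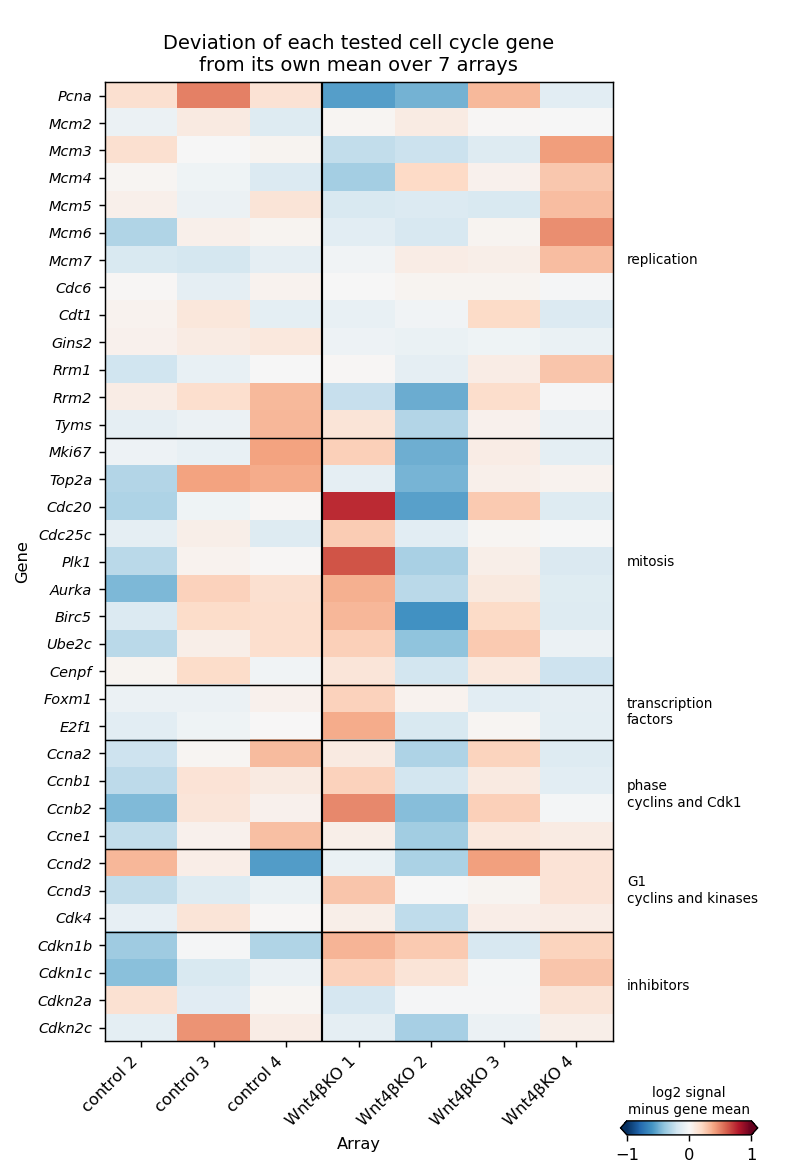
Deviation of each of the 35 tested genes (rows, grouped by role) from its own mean over the 7 arrays (columns), in log2 units, red above and blue below the mean. The mitosis genes and the B-type cyclins are blue in Wnt4βKO replicate 2 and mostly red in Wnt4βKO replicate 1, while Mcm3 to Mcm7 are red in Wnt4βKO replicate 4, which under median scaling was the highest array of 1 of them.

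The E-, A- and B-type cyclins followed the mitosis genes over the animals. Ccnb2, cyclin B2, gave 6.61, 7.17 and 7.09 in controls and 7.53, 6.63, 7.29 and 7.03 in Wnt4βKO islets. Control replicate 2 and Wnt4βKO replicate 2 were low together and Wnt4βKO replicate 1 was high. Ccnb1, cyclin B1, lay between 6.01 and 6.50 with the same 2 arrays at the bottom. Ccna2, cyclin A2, lay between 6.41 in Wnt4βKO replicate 2 and 7.03 in control replicate 4, and Ccne1, cyclin E1 of the G1 to S transition, between 6.95 and 7.60 in those arrays.

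Between the groups these 4 cyclins had log2 fold changes from -0.08 (Ccna2) to 0.17 (Ccnb2), with unadjusted limma p-values of at least 0.498. The transcription factors gave values of the same kind. E2f1 had a log2 fold change of 0.09 ± 0.13 (SE), and its highest array was Wnt4βKO replicate 1 (6.90, against 6.38 to 6.54 in the other 6). Foxm1, which drives many mitosis genes, was above background on 3 arrays, with values from 5.82 to 6.15 and the highest again in Wnt4βKO replicate 1.

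The helicase genes showed another order of the animals. The split of Mcm2 to Mcm7 from the other replication genes was made after the values had been seen. Their mean log2 signal was 7.32, 7.34 and 7.33 in controls and 7.22, 7.34, 7.34 and 7.66 in Wnt4βKO islets. Wnt4βKO replicate 4 was the highest array for 5 of the 6, Mcm2 being the other, against 14.5% of all tested probes, and Wnt4βKO replicate 1, which led the mitosis genes, was the lowest for 3. Under median scaling this order did not hold: control replicate 3, the highest array there for 41.8% of all tested probes, was the highest for 5 of the 6 and Wnt4βKO replicate 4 for 1. Mcm6 gave 9.18 in Wnt4βKO replicate 4 against 8.41 to 8.76 elsewhere, and Mcm3 gave 7.06 against 6.39 to 6.80.

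As a description over the same 7 arrays, which share normalization and animals, the median Pearson r between pairs of the 9 mitosis genes was 0.69, and 83.3% of their 36 pairs exceeded 0.5. Within the groups, after removal of each group's mean, the median was 0.78. Between pairs of the 6 helicase genes it was 0.41, between the mitosis and the helicase genes -0.21, and over all pairs of the 13619 named tested genes 0.00192, where 14.2% exceeded 0.5. No p-value belongs to these figures, and the pairs are not independent.

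**Figure D4:**
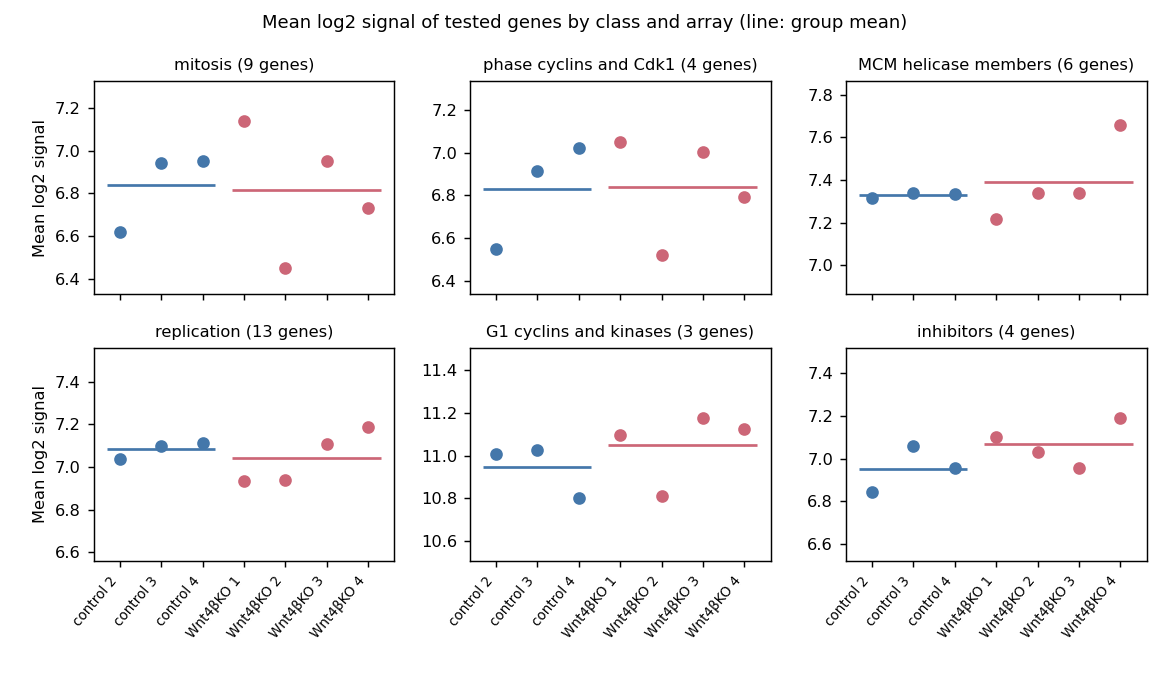
Mean log2 signal of the tested genes of each role (panels, with the number of genes) by array, with controls in blue, Wnt4βKO in red and the group mean as a line; every panel spans 1 log2 unit. The mitosis panel runs from 6.45 (Wnt4βKO replicate 2) to 7.14 (Wnt4βKO replicate 1), and the helicase panel has its highest value, 7.66, in Wnt4βKO replicate 4, an order that median scaling did not keep.

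Counted gene by gene, Wnt4βKO replicate 2 held the lowest of the 7 values for 13 of 34 members (38.2%; Gins2, with 2 arrays tied, was left out) and for 6 of the 9 mitosis genes, against 11.9% of all tested probes. It held the highest value of 0 members. Wnt4βKO replicate 1 held the highest value of 11 of 35 members and of 5 of the 9 mitosis genes, against 19.1% of all tested probes. Control replicate 2 held the lowest value of 8 members and the highest of 1. Wnt4βKO replicate 3 was rarely at either end, with 1 lowest and 3 highest. The count for Wnt4βKO replicate 2 was 8 under median scaling and between 13 and 16 under the other settings.

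**Figure D5:**
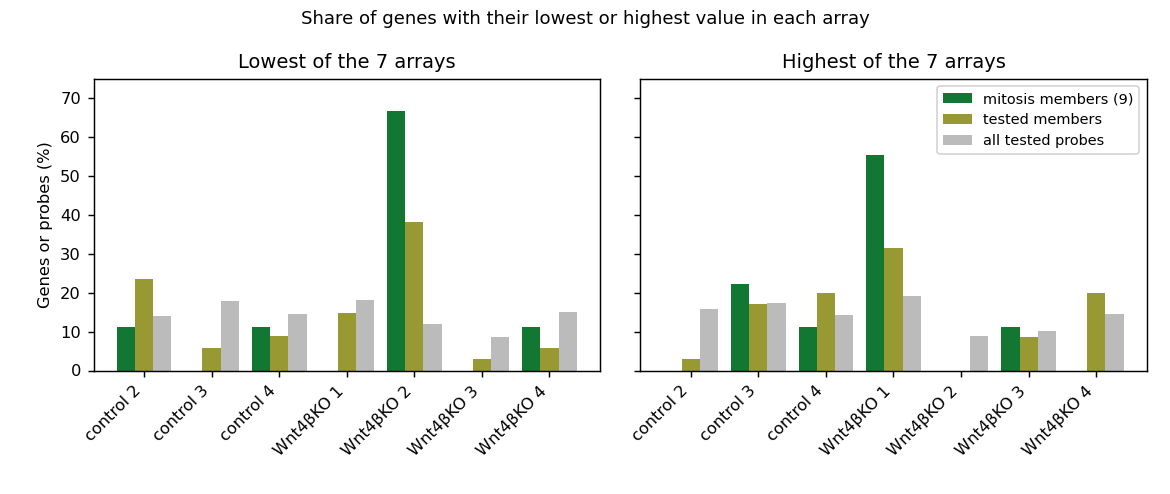
Percentage of the 9 mitosis genes (green), of the tested members (olive) and of all tested probes (grey) that had their lowest (left) or highest (right) of 7 values in each array. Wnt4βKO replicate 2 holds 66.7% of the lowest values of the mitosis genes against 11.9% of all probes.

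Signals of other cell types differed between the same animals. The 13 acinar markers, all tested, had a mean log2 signal of 13.39 to 13.53 in controls and 12.37 to 13.25 in Wnt4βKO islets, lowest in replicate 1. Their summed linear signal ranged from 297659 to 314837 in controls and from 196679 to 286460 in Wnt4βKO islets, without overlap. The 12 markers of macrophages and other immune cells, 10 of them tested, had a mean of 7.70 to 7.90 in controls and 7.60 to 7.98 in Wnt4βKO replicates 1, 2 and 3, but 8.84 in replicate 4, the array with the highest helicase genes. Their summed signal was 2895 to 3391 in controls and 2749 to 7729 in Wnt4βKO islets.

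Markers of endothelium, of stroma and of ducts were also lowest in Wnt4βKO replicate 1, at means of 7.19, 6.72 and 7.12, and the 9 β-cell markers were highest there, at 12.07 against 11.76 to 11.94 elsewhere. Wnt4βKO replicate 2, with the lowest mitosis genes, lay within the range of the other arrays for all 7 marker lists. Cftr of the ducts and Pdgfra of the stroma were the only markers of the 7 lists that no array put well above background. The part of these cell types in the values of the cell cycle genes was not tested.

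A further 84 genes of the cell cycle were taken from a list made by role and not by how they moved, and 66 of them were tested. After adjustment 0 differed between the groups by limma, and at an unadjusted p under 0.05, 0 were higher and 3 of the 66 lower, against 3.63% of all tested probes. The count is near that background, and nothing is read from it. The 3 were Cks1b, a small partner of cyclin-dependent kinases, Lig1, the ligase that joins Okazaki fragments, and Ncapg, a condensin subunit. Cks1b gave 8.33, 7.99 and 8.14 in controls and 7.34, 7.56, 7.73 and 7.58 in Wnt4βKO islets, a log2 fold change of -0.60 ± 0.12 (SE) that gave an unadjusted limma p of 0.00135 and, adjusted, 0.494.

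Lig1 had -0.40 ± 0.13 (SE) with an unadjusted limma p of 0.0152 and an adjusted p of 0.617, and Ncapg -0.27 ± 0.08 (SE) with an unadjusted limma p of 0.0122 and an adjusted p of 0.612. Of the 66 tested genes, 3 were lower and 1 was higher with no overlap between the groups, against 7.24% of all tested probes in either direction. The 3 lower ones were these same genes. They were picked at the unadjusted threshold on the same values, so their lack of overlap adds no support. The order of the animals recurred only in part in the 30 tested mitosis genes of this list, read on the same arrays. Their mean was again lowest in Wnt4βKO replicate 2 (6.80) and next in control replicate 2 (6.90). It was highest in control replicate 4 (7.09), with Wnt4βKO replicate 1 at 7.07. Of the 30, 28 were higher in Wnt4βKO replicate 1 than in Wnt4βKO replicate 2, against 51.0% of all tested probes, with a median difference of 0.23. Wnt4βKO replicate 2 held the lowest value of 16 of the 30, against 11.9% of all tested probes. Wnt4βKO replicate 1 held the highest of 12, against 19.1%. Of the 18 tested replication genes of the list, Wnt4βKO replicate 2 held the lowest value of 4 and Wnt4βKO replicate 1 of 6, against 11.9% and 18.1% of all tested probes.

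The 7 arrays lay on 1 slide and came from 1 scan. Between 45.5% and 49.0% of their non-control spots were well above background, and Pearson's r between arrays, across probes, ran from 0.962 to 0.984. Their number limits the precision of every value. For Wnt4 itself the single probe gave a difference of -0.49 ± 0.17 (SE) on the log2 scale (limma, unadjusted p 0.0232, adjusted p 0.651), lower in Wnt4βKO islets, and the groups overlapped. Where that probe lies relative to the deleted part was not determined.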

How the data were processed

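Islet RNA of 3 control and 4 Wnt4βKO mice was hybridised to 1 array each. The deposited scanner files, 1 for each array and written by Agilent Feature Extraction (version 12.0.1.1 per the file headers), hold linear spot intensities that had not been normalized between arrays. Following the authors' stated choices, normexp background correction (offset 50, median spot and median local background intensities, since the files hold no mean) and quantile normalization of log2 values were applied. Control spots were left out and spots marked as non-uniform or outlying set to missing (65 values among the tested probes). The offset raises dim signals, so fold changes of dim probes are understated.

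The test covered the 26151 of 56605 probes that 3 or more of the 7 arrays put well above background. A two-sided limma fit (version 3.58.1; lmFit, then eBayes; R 4.3.3) gave the difference of Wnt4βKO from control, and p-values were adjusted by Benjamini-Hochberg across the tested probes. Each sample has its own code in the labels and no pooling is mentioned, so samples were taken as animals; the p-values measure only the spread between them. Names came from unversioned accessions matched to a RefSeq table of GRCm38.p6, which named 32994 probes (58.3%). Further steps used Python 3.11.15. Tested on simulated data over 26102 probes with 200 changed, changes of 0.5 log2 units were called in 36% of cases and changes of 1 in 74%. Of all 160 calls, 12 were false. The simulated noise was independent between probes and had the spreads of all tested probes. These rates need not hold for the mitosis genes, which spread more widely and moved together over the animals.

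The members, roles, further lists and tests were chosen with earlier results of these data known. All members are named, then at most 3 other cell cycle genes at each end past the unadjusted threshold. Also named are the Ink4 inhibitors among the other cell cycle genes, and the 10 genes most like the cycling members over the arrays. A deposited table from the authors gives log2 values of 36693 probes, normalized by steps its labels do not state. Its columns did not follow the scanner arrays (highest r of gene-centred values with the sample's own array 0.09), so it was not used. Replicate numbers 2, 3 and 4 occur in both groups, and deviations of same-numbered arrays from their group means correlated at -0.13, 0.23 and -0.01. These cannot decide whether the numbers pair the animals, since differently numbered arrays were not set beside them. The main fit treated the animals as unpaired. Alternatives were other background corrections and normalizations, filters on dim probes, variance models, array weights, the replicate number or slide row as a block, the mean over probes, and each array left out in turn.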

Additional observations from a re-analysis of the deposited data

Results flagged for a closer look

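Within the 4 Wnt4βKO arrays, an array was marked as standing apart where its gap to the nearest other array, divided by the range of the 4, passed Dixon's critical value. Of 42 values examined 4 passed, where chance gives about 2.1 at 1 in 20. The ratio was 0.964 for Mcm5, whose value was 7.02 in Wnt4βKO replicate 4 and 6.56 to 6.57 in the other 3. It was 0.9337 for Cdk4, low in Wnt4βKO replicate 2 at 10.63 against 10.94 to 10.96. For Ccne1 it was 0.8819, again low in Wnt4βKO replicate 2, at 6.95 against 7.35 to 7.41. For the mean of the transcription factors E2f1 and Foxm1 it was 0.8829, high in Wnt4βKO replicate 1 at 6.53 against 6.13 to 6.18. Of the marker lists, that of macrophages and other immune cells was highest in Wnt4βKO replicate 4 and that of acinar cells lowest in Wnt4βKO replicate 1, and their part in these values was not tested.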

How the results depend on the processing

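Adjusted calls among the members and among the other cell cycle genes numbered 0 under each of the 19 alternatives. The 4 members past the unadjusted threshold became 0 under median scaling, and between 1 and 5 when 1 array was left out. The count without overlap between the groups was 1 under median scaling, and 4 to 7 when 1 array was left out, with fewer arrays to overlap. When the processed signal was used, scaled to its 75th percentile, the median log2 fold change of the replication genes was -0.24 and that of the G1 cyclins and Cdk4 0.29. Other cell cycle genes past the unadjusted threshold numbered 3 to 6 when 1 array was left out. They numbered 5 with the replicate block, over the 6 arrays that share a number, where 5.98% of all tested probes passed. With that block 4 members passed the unadjusted threshold, but not the same ones: Pcna (p 0.0409) and Top2a (p 0.0278) were gained and Ccnd3 (p 0.0628) and Cdkn1b (p 0.133) lost, and 5 members did not overlap. The mean of the cycling members in Wnt4βKO replicate 2 lay at -0.31 relative to the lowest other array with the processed signal and at 0.043 relative to it under median scaling, so that it was no longer the lowest, and 8 members were lowest in it. The cause of these shifts was not tested. Of the 4 members past the unadjusted threshold, Mcm7 and Ccnd3 each lost the call under 11 alternatives, Cdkn1b under 8 and Cdkn1c under 2. Signal over background is the limit for 8 members and for Gins2, Foxm1, Mcm2, Cdt1, Cdc25c and Cenpf.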

Other observations

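Outside the cell cycle lists, the genes whose 7 values followed the mean profile of the cycling members most closely were Klhl10, Spag5, Cln3, Serpina1c, Foxj3, Tspan31, Lxn, Lkaaear1, Gripap1 and Cers5, with Pearson's r from 0.93 to 0.98 over the 7 arrays. The ranking is over 13619 genes and carries no test. Spag5 encodes a protein of the mitotic spindle, and its value ran from 5.81 in Wnt4βKO replicate 2 to 6.02 in Wnt4βKO replicate 1. Serpina1c, an α1-antitrypsin gene, had the widest span of the 10, with 6.12 in control replicate 2 and 6.29 in Wnt4βKO replicate 2 against 7.32 to 7.72 in the other 5 arrays. Among the first 100 genes of the ranking stood 8 of the 35 tested members, which made the profile, and 3 of the 66 other cell cycle genes.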
